A study of Homo sapiens with 28 samples.

Results

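Wild-type H9 cells on day 4 under the culture label CT0.4 were compared with the same cells before differentiation (ES, day 0). H9 is an established human embryonic stem cell line. The comparison rests on 4 of 28 libraries, chosen by their column names: 2 of wild-type neural progenitors under CT0.4 on day 4 and 2 of wild-type ES cells. The series asks what the transcription factor SOX1 does early in neural differentiation, so it also holds cells without SOX1 (SOX1-/-, here KO), day 8, and the labels IWP2 and CT1.0, each with 2 libraries per group. IWP2 is a compound that blocks the release of WNT proteins. The sources used here do not expand CT or give a unit for its number. Wild-type libraries are numbered 1 and 2 and KO libraries 26 and 48, read here as lines. The labels do not say whether lines of 1 genotype are separate clones or cultures, so the p-values measure only the spread between these libraries. No growth protocol is given for any group.

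Values are TPM as deposited, an abundance per transcript length scaled to the same total in each library, so levels can be compared between genes. TPM keeps no read depth, so depth and counting precision are unknown here. Each value pair below is given as line 1 and line 2. Genes entered the comparison when 2 or more of the 4 libraries held them at 1 TPM or above, which held for 19765 of 58219 genes. Fold changes are day 4 minus ES on the log2(TPM + 1) scale, which understates the change of low genes. "Called" means a Benjamini-Hochberg adjusted p under 0.05 in limma. An exact permutation test of 2 against 2 libraries cannot give a p below 0.333 and was not used. Groups that do not overlap are the most extreme outcome of such a test. Statements of non-overlap below therefore describe the values and are no test, and the share of such genes over all tested genes is not given.

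Human ES cells are held in a primed pluripotent state by POU5F1, SOX2 and NANOG together with NODAL and FGF signals, and they grow as an E-cadherin epithelium. When these signals are withdrawn the cells turn into neural epithelium, which is anterior unless posteriorising signals act on it. WNT is such a signal: graded WNT activity sets forebrain, midbrain and hindbrain identities along the neural tube. OTX2 marks forebrain and midbrain, the isthmus at the midbrain-hindbrain border secretes FGF8 and WNT1, and HOX genes mark the hindbrain and spinal cord.

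Replicates correlated across the tested genes at Pearson r = 0.957 in ES and 0.97 on day 4. Fewer genes reached 1 TPM on day 4, 17891 and 18233, than in ES, 19329 and 19021. Cytosolic ribosomal protein genes held 19.4% and 17.4% of all TPM in ES and 26.7% and 25% on day 4. Since TPM columns share a fixed total, such a shift lowers the values of other genes, and each count was also taken after median-ratio scaling of the columns. That scaling moved the median of all genes from -0.051 to -0.015 on the log2 scale. POU5F1, LEFTY1 and LEFTY2, the metallothioneins, ribosomal protein genes and mitochondrial genes have near-identical copies or pseudogenes in the genome, and how reads were divided among such copies could shift their values.

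For each marker gene of the comparison the 2 groups did not overlap, which is a description and no test. PAX3, a transcription factor of the dorsal neural tube, was at 0.86 and 0.884 TPM in ES and 25.7 and 25.6 TPM on day 4 (log2 fold change 3.83, SE 0.28, adjusted p = 8.35e-09). OTX2, the forebrain and midbrain factor, was already present in ES at 65.8 and 55.7 TPM and reached 427 and 415 TPM (log2 fold change 2.78, SE 0.36, adjusted p = 9.01e-06). Both day 4 libraries lay several-fold above both ES libraries. LIX1, here a marker of the neural state, was at 0.359 and 0.235 TPM in ES and 52.4 and 53.8 TPM on day 4 (log2 fold change 5.38, SE 0.17, adjusted p = 3.02e-13). ZEB2, a zinc-finger repressor of E-cadherin, was at 0.99 and 0.946 TPM in ES and 72.7 and 66.8 TPM on day 4 (log2 fold change 5.17, SE 0.14, adjusted p = 3.68e-14). GREB1L, a relative of an estrogen-responsive gene, was at 1.95 and 1.68 TPM in ES and 174 and 183 TPM on day 4 (log2 fold change 6.0, SE 0.13, adjusted p = 1.84e-15). OTX2 apart, the risen markers were under 2 TPM in both ES libraries. POU5F1, the pluripotency factor OCT4, went the other way, from 2514 and 2399 TPM to 46.5 and 34.1 TPM (log2 fold change -5.91, SE 0.28, adjusted p = 3.71e-11), and was not silent on day 4. In bulk RNA, fewer cells that express a gene and less RNA per cell cannot be told apart.

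**Figure D1:**
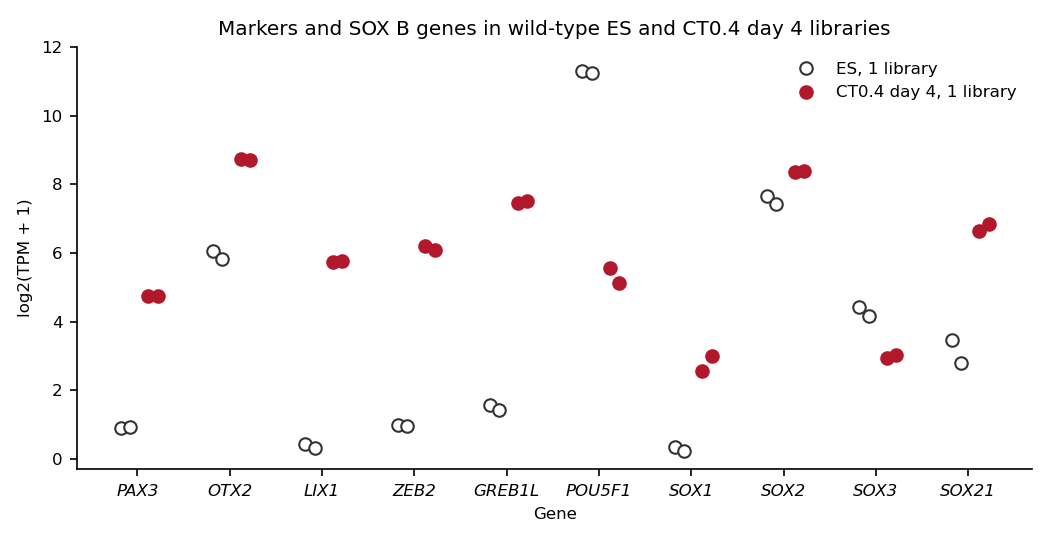
TPM of the 6 marker genes and 4 SOX B genes in each of the 4 libraries, on a log2(TPM + 1) axis, with open circles for ES and filled circles for CT0.4 day 4. PAX3, LIX1, ZEB2 and GREB1L rise from near 0, OTX2 and SOX2 rise from a level already high in ES, and POU5F1 and SOX3 fall.

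Over all tested genes, 8596 were called (43.5%), 3598 higher on day 4 (18.2%) and 4998 lower (25.3%). After scaling, 4068 were higher (20.6%) and 4847 lower (24.5%), and 8398 genes (42.5%) were called in the same direction on both scales. When the absolute log2 fold change also had to reach 1, 1281 genes were higher (6.48%) and 2905 lower (14.7%), so large falls outnumbered large rises. These shares are the background for every gene group below. The filter itself fixes part of them. 750 tested genes were under 1 TPM in both ES libraries and entered through the day 4 libraries alone, and 413 of them were called higher. 1617 entered through ES alone, and 1335 of them were called lower. A gene of either kind could enter only by being high in 1 group, so list counts below describe the members that entered. Those that entered through day 4 alone numbered 5 in the pan-neural list, 5 in the isthmus list and 5 in the dorsal list. They numbered 3 each in the lists of WNT feedback genes, WNT ligands, FGF ligands and receptors, COUP-TF and Iroquois factors, and cadherins. The midbrain list is described below, and lists with fewer than 3 are not named. Those that entered through ES alone numbered 6 in core pluripotency, 4 in NODAL, and 3 each in surface ectoderm, retinoic acid, caudal, neural crest and naive pluripotency.

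**Figure D2:**
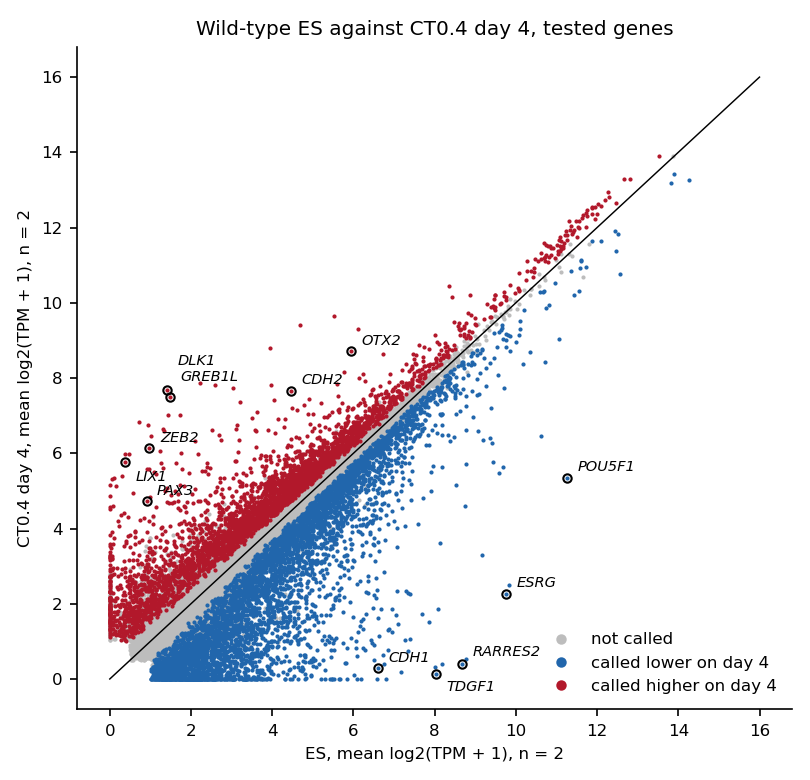
Mean TPM of each tested gene in ES (x axis) and on day 4 under CT0.4 (y axis), both as log2(TPM + 1), with the 2 libraries of a group averaged. Genes called higher are red, genes called lower blue and the rest grey, and the 6 markers and the leading genes lie far from the diagonal on both sides.

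Leaving out pseudogenes, ribosomal protein and mitochondrial genes, and genes known only by clone-like, LINC or similar identifiers, the 15 largest rises with groups that did not overlap were those of DLK1, GREB1L, FLRT3, WLS, CNTFR, DMBX1, DBX1, OTX1, LIX1, LHX5-AS1, CNTN2, SMOC1, NR2F1, PAMR1 and POU4F1, with log2 fold changes from 5.23 to 6.27. DLK1, an imprinted transmembrane protein with NOTCH-ligand-like repeats, was at 2.85 and 0.842 TPM in ES and 218 and 193 TPM on day 4 (log2 fold change 6.27, SE 0.44, adjusted p = 5.49e-09). FLRT3, an adhesion protein that binds FGF receptors, was at 1.06 and 0.81 TPM in ES and 117 and 98.4 TPM on day 4. CNTFR, a receptor of ciliary neurotrophic factor, was at 2.54 and 1.04 TPM in ES and 116 and 145 TPM on day 4. Each of these genes was under 4 TPM in ES and about 100 TPM or more on day 4. Transcription factors made up 5 of the 15: DMBX1 and OTX1 of the midbrain, DBX1 and POU4F1, which act in spinal and sensory or habenular neurons, and the nuclear receptor NR2F1. NR2F1 was at 0.0332 and 0.0562 TPM in ES and 33.2 and 45.5 TPM on day 4 (log2 fold change 5.25, SE 0.34, adjusted p = 1.95e-09). POU4F1 was at 0.0811 and 0.0687 TPM in ES and 36.6 and 42.1 TPM on day 4. SMOC1, a secreted matrix protein, and CNTN2, an axonal adhesion protein, reached 86.2 and 108 TPM and 120.0 and 138 TPM. LHX5-AS1 lies antisense to LHX5, and the sources used here do not say whether quantification used strand, so its RNA and that of its partner may not be separable.

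By the same rule, the 15 largest falls were those of RARRES2, TDGF1, FOXD3-AS1, ESRG, SCGB3A2, LNCPRESS2, AP1M2, L1TD1, MT1G, CDH1, CNMD, CD9, CXCL5, IDO1 and CLDN7, from -8.28 to -6.0. RARRES2, which encodes the chemoattractant chemerin, was at 415 and 406 TPM in ES and 0.142 and 0.527 TPM on day 4 (log2 fold change -8.28, SE 0.34, adjusted p = 5.49e-12). TDGF1, the NODAL co-receptor CRIPTO, was at 249.7 and 275 TPM in ES and 0.0882 and 0.0907 TPM on day 4 (log2 fold change -7.92, SE 0.21, adjusted p = 3.21e-14). SCGB3A2, a secretoglobin, was at 990.1 and 846 TPM in ES and 3.17 and 6.69 TPM on day 4. These 3 were above 200 TPM in both ES libraries and under 7 TPM in both day 4 libraries. ESRG, a non-coding RNA made from an HERV-H element in pluripotent cells, was at 958 and 793 TPM and then 4.11 and 3.54 TPM. L1TD1, an RNA-binding protein of pluripotent cells, was at 187 and 285 TPM in ES and 1.85 and 1.9 TPM on day 4. LNCPRESS2 was at 117 and 105 TPM in ES and is listed at 0 in both day 4 libraries. AP1M2 and CLDN7 belong to polarised epithelia, CD9 is a tetraspanin, and CXCL5 and IDO1 are a chemokine and a tryptophan-degrading enzyme. MT1G differed between the ES lines, at 301 and 92.7 TPM, but both lay above its day 4 values of 0.583 and 1.81 TPM.

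Of 22 core pluripotency genes, 17 fell and 5 rose, with a median log2 fold change of -2.96. NANOG, a homeobox factor of the pluripotent state, was at 20.9 and 31.2 TPM in ES and 0.165 and 0.135 TPM on day 4 (log2 fold change -4.53, SE 0.20, adjusted p = 1.51e-11). ZFP42 (REX1) was at 106 and 125 TPM in ES and 1.18 and 1.81 TPM on day 4, and PRDM14, a repressor of differentiation genes, at 30.1 and 37.7 TPM in ES and 1.76 and 1.91 TPM on day 4. These were all but gone on day 4. DNMT3B, a de novo DNA methyltransferase, kept part of its level, from 292 and 375 TPM to 74.9 and 82.8 TPM (log2 fold change -2.06, SE 0.14, adjusted p = 2.32e-09), as did DPPA4, from 429 and 449 to 94.7 and 99.4 TPM. Members that rose are known from neural progenitors too: POU3F1, a POU factor, from 14.2 and 15 to 47.8 and 60.3 TPM (log2 fold change 1.81, SE 0.28, adjusted p = 4.83e-05), LIN28A, a blocker of let-7 maturation, from 687 and 660.2 to 954 and 941 TPM, and SOX2, described with its family below. Of 10 genes on the naive pluripotency list 3 were tested, SUSD2, ALPPL2 and TFCP2L1, at TPM of at most 6 in ES. All 3 were called lower, but all 3 entered through ES alone. The filter thus set their direction, and the count is a description and not support for a fall.

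The NODAL pathway maintains pluripotency in human cells, and 7 of its 8 tested genes fell while 1 rose. FOXH1, the SMAD partner of the pathway, was at 68.6 and 67 TPM in ES and 1.18 and 1.6 TPM on day 4 (log2 fold change -4.85, SE 0.37, adjusted p = 1.43e-08). Its feedback inhibitors LEFTY1 and LEFTY2 were at 3.08 and 9.37 TPM and 2.32 and 6.24 TPM in ES, and at 0 and 0.0479 TPM and 0.0365 and 0.0383 TPM on day 4. GDF3, a ligand, was at 6.72 and 8.33 TPM in ES and is listed at 0 in both day 4 libraries. FST, which encodes the activin antagonist follistatin, rose from 11.2 and 15.9 to 49 and 50.3 TPM (log2 fold change 1.82, SE 0.18, adjusted p = 4.44e-07).

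Among adhesion genes, E-cadherin fell and N-cadherin rose. CDH1, which encodes E-cadherin, was at 98 and 94 TPM in ES and 0.151 and 0.288 TPM on day 4 (log2 fold change -6.32, SE 0.39, adjusted p = 1.01e-09). CDH2, which encodes N-cadherin, the cadherin of neural epithelium, was at 19.9 and 22.1 TPM in ES and 200.4 and 203 TPM on day 4 (log2 fold change 3.20, SE 0.12, adjusted p = 1.48e-12). Neither pair of groups overlapped. P-cadherin CDH3, the epithelial adhesion molecule EPCAM and the epithelial splicing factors ESRP1 and ESRP2 fell with log2 fold changes of -4.39, -4.94, -5.41 and -4.08. ZEB1, a repressor of E-cadherin like ZEB2, was at 0.488 and 0.492 TPM in ES and 9.79 and 8.57 TPM on day 4 (log2 fold change 2.77, SE 0.27, adjusted p = 2.47e-07), whereas SNAI1, a further repressor of it, fell from 7.34 and 8.11 to 2.02 and 2.86 TPM. In the list of cadherins and genes of epithelial-mesenchymal transition, 6 of 16 tested genes rose and 8 fell. Of the 16, 3 entered through day 4 alone, ZEB1 and ZEB2 among them, and 2 through ES alone. KRT18, a keratin of simple epithelia, fell from 158 and 187 to 26.7 and 25.8 TPM.

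Pan-neural progenitor genes rose almost throughout: 19 of 21 tested were higher and 1 lower, with a median log2 fold change of 2.34. Of the 19 rises, 5 were of genes that entered through day 4 alone, so the filter set their direction. LIX1 and ZEB2, which are also markers of the comparison, are among these 5. PAX6, a neural and eye-field factor, was at 1.23 and 1.49 TPM in ES and 64.1 and 68.4 TPM on day 4 (log2 fold change 4.83, SE 0.34, adjusted p = 5.33e-09). PTN, the growth factor pleiotrophin, was at 43 and 46.3 TPM in ES and 846 and 771 TPM on day 4 (log2 fold change 4.15, SE 0.16, adjusted p = 2.10e-12). POU3F2, the neural POU factor BRN2, was at 0.259 and 0.164 TPM in ES and 18.3 and 20.5 TPM on day 4. Groups stood apart in each case. NES and VIM, the intermediate filament genes of neural progenitors, rose from levels already high in ES, NES from 75.3 and 79.8 to 223 and 259 TPM (log2 fold change 1.62, SE 0.29, adjusted p = 2.20e-04) and VIM from 212 and 147 to 408 and 391 TPM (log2 fold change 1.18, SE 0.12, adjusted p = 5.79e-07). NCAM1, the neural cell adhesion molecule, rose from 4.71 and 4.34 to 47.6 and 48.9 TPM. SOX4, a SOX C factor, was at 60.8 and 55.1 TPM in ES and 47.3 and 49.4 TPM on day 4 and did not pass the test (adjusted p = 0.116).

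The SOX B factors SOX1, SOX2 and SOX3 hold neural progenitors in an undifferentiated state. These genes and SOX21, also of the SOX B group, did not move together. SOX1 was at 0.264 and 0.177 TPM in ES and 4.88 and 7.01 TPM on day 4 (log2 fold change 2.49, SE 0.36, adjusted p = 2.85e-05). SOX2 rose from 202 and 169.8 to 324 and 332 TPM (log2 fold change 0.82, SE 0.12, adjusted p = 2.66e-05), and SOX21 from 10.1 and 5.94 to 98.6 and 114 TPM (log2 fold change 3.61, SE 0.26, adjusted p = 6.66e-09). SOX3 fell, from 20.5 and 16.8 to 6.62 and 7.18 TPM (log2 fold change -1.31, SE 0.26, adjusted p = 4.76e-04). On day 4 SOX2 was thus the most abundant of these genes, and SOX1 and SOX3 were both under 8 TPM.

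**Figure D3:**
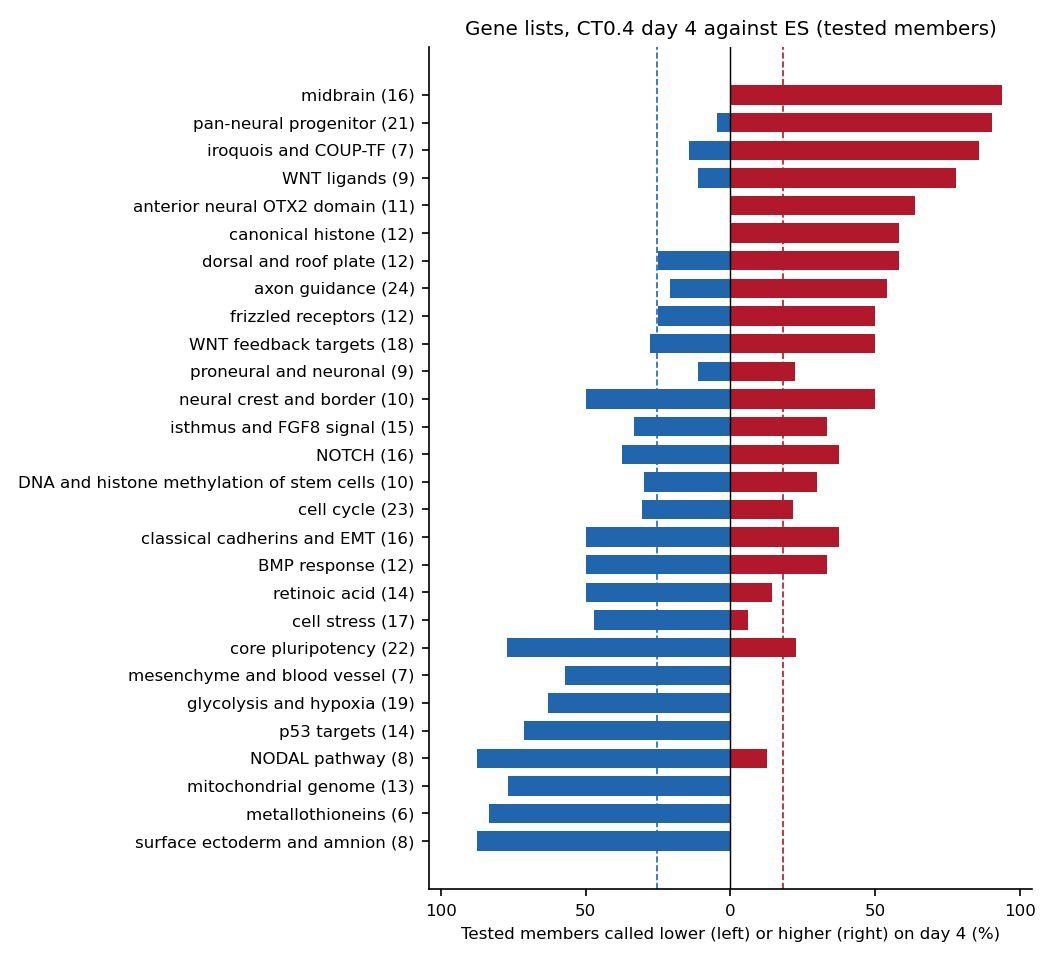
Share of tested members called higher (red, right) and lower (blue, left) on day 4 for most gene lists named in the text. The number of tested members stands beside each name, and dashed lines mark the shares over all tested genes, 18.2% and 25.3%. The naive pluripotency, mesendoderm, caudal, rostral hindbrain, ventral, SOX B and secreted WNT antagonist lists are not drawn. Nor are those of FGF ligands and receptors, matrix, and IGF and imprinted genes. Members that entered through 1 group alone are included. Midbrain and pan-neural lists stand at the higher end. Surface ectoderm, metallothionein, mitochondrial genome, NODAL and p53 target lists stand at the lower end. The glycolysis and hypoxia, mesenchyme and core pluripotency lists come next to them.

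Of 20 midbrain genes 16 entered, 15 were called higher and 0 lower. 12 of them were under 1 TPM in both ES libraries and entered through day 4 alone, so this count is a description and not support for a direction. Of the other 4, OTX2, OTX1 and PAX6 rose and TAL2, at 1.67 and 0.585 TPM in ES and 2.09 and 2.29 TPM on day 4, did not pass the test (adjusted p = 0.155). DMBX1, a homeobox factor of the midbrain, was at 0.407 and 0.201 TPM in ES and 55.5 and 68.7 TPM on day 4 (log2 fold change 5.59, SE 0.29, adjusted p = 1.16e-10). OTX1 was at 1.19 and 0.841 TPM in ES and 77.8 and 97.6 TPM on day 4 (log2 fold change 5.46, SE 0.39, adjusted p = 5.83e-09). PAX2, a factor of the midbrain-hindbrain border, was at 0 and 0.243 TPM in ES and 30.7 and 38 TPM on day 4 (log2 fold change 4.98, SE 0.37, adjusted p = 9.68e-09). All 3 genes were under 2 TPM in ES. EN1, the engrailed factor of the midbrain-hindbrain region, was lower, at 0 and 0.0263 TPM in ES and 5.32 and 8.19 TPM on day 4 (log2 fold change 2.91, SE 0.38, adjusted p = 7.20e-06). LMX1B, a factor of roof plate and dopaminergic progenitors, was at 5.05 and 6.58 TPM on day 4, and its relative LMX1A, listed at 0 in both ES libraries, at 5.42 and 3.83 TPM. BARHL1, a homeobox factor, was also listed at 0 in ES and stood at 3.84 and 3.09 TPM. EN2, PAX5, PAX7 and BARHL2 did not pass the filter, with at most 0.606 TPM in any of the 4 libraries.

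Genes of the anterior, OTX2-positive neural plate rose in part: 7 of 11 tested rose and 0 fell. LHX5, a LIM homeobox factor of the forebrain, was at 1.51 and 0.807 TPM in ES and 40.9 and 47.7 TPM on day 4 (log2 fold change 4.41, SE 0.37, adjusted p = 4.03e-08). FEZF2, a forebrain zinc-finger factor, was at 0.0632 and 0.071 TPM in ES and 5.81 and 5.99 TPM on day 4 (log2 fold change 2.69, SE 0.35, adjusted p = 9.18e-06). ZIC2 and SFRP1, present in ES at 177 and 162 TPM and 391 and 353 TPM, were at 125 and 154 TPM and 339.9 and 343 TPM on day 4, and neither passed the test (adjusted p = 0.226 and 0.515). The telencephalic and eye-field factors SIX3, SIX6, RAX, LHX2, NKX2-1 and VAX1 did not pass the filter, and none exceeded 1.66 TPM in any of the 4 libraries. EMX2, a factor of dorsal forebrain that no list holds, was at 0.0902 and 0.054 TPM in ES and 12.5 and 12.2 TPM on day 4 and was singled out after its values were seen.

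At the posterior end, 0 of 39 HOX genes passed the filter, and the highest HOX value on day 4 was 0.327 TPM. IRX3, an Iroquois factor, rose from 2.63 and 0.907 TPM in ES to 4.74 and 6.4 TPM on day 4 (log2 fold change 1.31, SE 0.27, adjusted p = 8.68e-04), but was not called without line 2 (adjusted p = 0.136). EGR2, a hindbrain zinc-finger factor, fell from 2.88 and 1.01 to 0.38 and 0.386 TPM (log2 fold change -1.01, SE 0.31, adjusted p = 0.0136), but was not called without line 1 (adjusted p = 0.334). GBX2, a hindbrain factor, did not pass the filter. Of 12 caudal genes 6 were tested, 2 rose (0 without line 2) and 4 fell. The list's summed TPM was 80.9 and 65.8 in ES and 151 and 180 on day 4, mostly HES3, a HES repressor, at 44.7 and 28.7 TPM in ES and 146 and 174 TPM on day 4 (adjusted p = 0.00567, and 0.149 without line 2). The other rise was FGF17, a ligand of the isthmus, and among the falls CDX4, a caudal homeobox factor, was at 1.79 and 2.51 TPM in ES and is listed at 0 on day 4, and NKX1-2, a factor of the caudal epiblast, fell from 5.55 and 8.63 to 0.0364 and 0.022 TPM (log2 fold change -2.95, SE 0.18, adjusted p = 1.17e-09).

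COUP-TF and Iroquois factors pattern the neural plate along its length, and 6 of 7 tested rose (3 without line 2). NR2F2, the COUP-TF partner of NR2F1, was at 0.052 and 0.0764 TPM in ES and 21 and 25.5 TPM on day 4 (log2 fold change 4.50, SE 0.36, adjusted p = 2.12e-08). IRX1 was at 5.4 and 1.91 TPM in ES and 71.8 and 86.4 TPM on day 4 (log2 fold change 4.21, SE 0.32, adjusted p = 1.25e-08). Along the dorsoventral axis, 7 of 12 tested dorsal and roof plate genes rose and 3 fell, with fewer falls when a line was left out. Of the 7 rises, 5 were of genes that entered through day 4 alone, and of the 3 falls 1 entered through ES alone. For these the filter set the direction. MSX1, a dorsal target of BMP, was at 0.314 and 0.503 TPM in ES and 5.76 and 6.79 TPM on day 4 (log2 fold change 2.37, SE 0.33, adjusted p = 1.97e-05). Of the ventral list, NKX6-1, a ventral progenitor factor, was at 0.0253 and 0.0525 TPM in ES and 6.32 and 10.2 TPM on day 4 (log2 fold change 3.13, SE 0.35, adjusted p = 1.66e-06), while GLI1, the readout gene of SHH signalling, fell from 20.2 and 24.7 to 2.31 and 1.83 TPM (log2 fold change -2.93, SE 0.44, adjusted p = 3.57e-05). Ventral factors SHH, FOXA2, NKX2-2 and OLIG2 did not pass the filter.

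WNT acts through frizzled receptors and TCF/LEF factors, and feedback targets such as AXIN2 report its activity. Of 18 tested feedback genes, 9 rose and 5 fell (9 and 6 after scaling). AXIN2, a negative regulator of beta-catenin, was at 16.8 and 12.3 TPM in ES and 53.3 and 60.8 TPM on day 4 (log2 fold change 1.91, SE 0.19, adjusted p = 4.58e-07). LEF1, a TCF/LEF factor that WNT induces, was at 0.444 and 0.522 TPM in ES and 31.6 and 27.9 TPM on day 4 (log2 fold change 4.37, SE 0.24, adjusted p = 2.30e-10). TNFRSF19, a receptor that is a WNT target, was at 0.913 and 0.976 TPM in ES and 49.9 and 44.2 TPM on day 4 (log2 fold change 4.63, SE 0.27, adjusted p = 5.53e-10). All 3 were higher in both day 4 libraries than in either ES library. SP5, a zinc-finger repressor within the feedback loop, was at 58.4 and 47.6 TPM on day 4, and its ES lines differed, at 4.42 and 0.071 TPM (log2 fold change 4.48, SE 0.55, adjusted p = 3.87e-06). Among the falls, TCF7L1, a TCF factor that represses WNT targets in pluripotent cells, went from 65.8 and 82.8 to 15.4 and 21 TPM (log2 fold change -1.98, SE 0.12, adjusted p = 1.07e-09), MYC from 25.1 and 28.2 to 5.12 and 9.4 TPM, and NKD2, an inhibitor of dishevelled, from 10.9 and 13.6 to 2.01 and 1.56 TPM.

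The stretch before the start of SP5 is shown because it was the only promoter among the risen feedback genes to hold the TCF/LEF motif. The motif ATCAAAG was searched on both strands from 250 bases before to 50 after each start in RefSeq (GRCh38.p14). It was in 1 of 6 such promoters, in 1 of 12 of all tested feedback genes with a promoter in the table, and in 2.64% of 27305 promoters. The 250 bases at chr2:170715087-170715336, plus strand, intergenic sequence upstream of the first exon, carry the match on the minus strand, 109 to 103 bases before the start, in capitals.
SP5: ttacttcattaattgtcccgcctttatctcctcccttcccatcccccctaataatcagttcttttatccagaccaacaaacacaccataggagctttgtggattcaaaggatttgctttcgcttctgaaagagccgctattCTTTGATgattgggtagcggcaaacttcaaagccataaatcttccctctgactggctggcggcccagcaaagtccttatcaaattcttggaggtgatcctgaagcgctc
A match describes these letters and is no measure of binding. The octamer ATGCAAAT, which POU factors bind, was in 0 of 13 promoters of tested pluripotency genes and in 1.8% of all.

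Genes for WNT ligands and their release rose in 7 of 9 tested cases and fell in 1, which became 4 rises without line 1 and 4 without line 2. WLS, the carrier that brings WNT proteins to the cell surface, was at 3.31 and 4.07 TPM in ES and 240.2 and 229 TPM on day 4 (log2 fold change 5.66, SE 0.30, adjusted p = 1.45e-10). WNT5B was at 3 and 1.33 TPM in ES and 28.7 and 34 TPM on day 4 (log2 fold change 3.40, SE 0.28, adjusted p = 3.91e-08). WNT1, the ligand of the isthmus and dorsal midbrain, was at 0 and 0.0635 TPM in ES and 7.3 and 9.55 TPM on day 4 (log2 fold change 3.18, SE 0.37, adjusted p = 2.25e-06). These were absent or low in ES. Among secreted antagonists DKK1, which blocks LRP co-receptors, rose from 0.225 and 0.345 to 19.9 and 20.7 TPM (log2 fold change 4.05, SE 0.37, adjusted p = 1.14e-07) and FRZB, a soluble frizzled domain, from 3.83 and 4.38 to 46.3 and 44.3 TPM (log2 fold change 3.18, SE 0.12, adjusted p = 3.19e-12). SFRP5, of the same kind, fell from 5.19 and 3.24 to 0 and 0.0425 TPM. Of 12 frizzled and LRP receptor genes, 6 rose and 3 fell (1 without line 1), led by FZD10 at 0.261 and 0.355 TPM in ES and 5.39 and 6.94 TPM on day 4. RSPO2, a secreted amplifier of WNT signals from the dorsal list, rose from 0.809 and 1.66 to 44.4 and 40.3 TPM (log2 fold change 4.30, SE 0.44, adjusted p = 5.36e-07).

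FGF8 and FGF9 rose, while genes that report FGF signalling fell in part. DUSP6, SPRY4, ETV4, ETV5 and SPRY2 fell. SPRY1, SPRED2 and IL17RD, also feedback genes of FGF, were not called (adjusted p = 0.991, 0.196 and 0.122). FGF8, the isthmus ligand, was at 0.654 and 0.665 TPM in ES and 12.1 and 11 TPM on day 4 (log2 fold change 2.92, SE 0.34, adjusted p = 2.03e-06). FGF9 was at 0.0467 and 0.0456 TPM in ES and 17 and 11.3 TPM on day 4 (log2 fold change 3.83, SE 0.42, adjusted p = 1.24e-06). FGF2, the ligand that sustains pluripotent cultures, fell from 42.1 and 40.6 to 13.4 and 13.7 TPM (log2 fold change -1.54, SE 0.12, adjusted p = 1.68e-08), and FGFR4, a receptor, from 65.7 and 80.0 to 16.7 and 15.2 TPM. DUSP6, an ERK phosphatase induced by FGF, was at 71.9 and 124 TPM in ES and 3.1 and 5.56 TPM on day 4 (log2 fold change -4.20, SE 0.37, adjusted p = 8.53e-08). SPRY4, a feedback inhibitor, was at 55.9 and 67.2 TPM in ES and 5.29 and 8.87 TPM on day 4 (log2 fold change -2.98, SE 0.29, adjusted p = 3.12e-07), and ETV4, an ETS factor of the pathway, at 70.3 and 95 TPM in ES and 3.37 and 4.35 TPM on day 4. In the isthmus and FGF8 list, 5 of 15 tested genes rose and 5 fell, with fewer falls when a line was left out. All 5 rises, FGF8 among them, were of genes that entered through day 4 alone. The filter thus set their direction, and the count of rises is a description and no support. SPRED1, a further inhibitor, was at 19.2 and 22.8 TPM in ES and 17.1 and 19.8 TPM on day 4 with no call (adjusted p = 0.245).

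BMP response genes split, with 4 of 12 tested higher (2 without line 2) and 6 lower. ID1, a direct target of BMP that blocks bHLH factors, was at 79.1 and 62.8 TPM in ES and 1.93 and 1.4 TPM on day 4 (log2 fold change -4.75, SE 0.28, adjusted p = 5.43e-10). ID3, of the same family, was at 72.2 and 107 TPM in ES and 27.7 and 37.4 TPM on day 4 (log2 fold change -1.42, SE 0.28, adjusted p = 4.60e-04). ID2, a further ID gene, rose from 118 and 93 to 418 and 379 TPM (log2 fold change 1.91, SE 0.23, adjusted p = 3.74e-06). Retinoic acid is a posteriorising signal. In its list 7 of 14 tested genes fell and 2 rose, with fewer rises when line 2 was left out. The 2 rises were GREB1L and GREB1, which are not genes of retinoic acid metabolism or reception. CYP26A1, which degrades retinoic acid, fell from 22.3 and 22.6 to 1.44 and 2.45 TPM (log2 fold change -3.01, SE 0.54, adjusted p = 2.27e-04). DHRS3, a retinal reductase, fell from 15.8 and 13.8 to 0.613 and 0.316 TPM (log2 fold change -3.44, SE 0.26, adjusted p = 1.17e-08). RARG, a receptor, fell from 46 and 47.5 to 18.6 and 17.1 TPM.

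NOTCH keeps progenitors from becoming neurons, and 6 of 16 tested pathway genes rose (2 without line 2) and 6 fell. DLL1, a ligand, was at 7.16 and 1.87 TPM in ES and 41.2 and 50.2 TPM on day 4 (log2 fold change 3.26, SE 0.41, adjusted p = 5.30e-06). LFNG, a glycosyltransferase that modifies NOTCH, was at 22.9 and 23.3 TPM in ES and 78.4 and 92.4 TPM on day 4 (log2 fold change 1.84, SE 0.27, adjusted p = 3.31e-05). HEY2, a target repressor, fell from 9.59 and 8.66 to 1.03 and 1.44 TPM (log2 fold change -2.18, SE 0.18, adjusted p = 4.73e-08). Of 20 proneural and neuronal genes, 9 were tested, 2 rose and 1 fell (0 without line 1 and 0 without line 2). MAP2, a dendritic microtubule protein, rose from 8.2 and 8.1 to 81.8 and 79.3 TPM (log2 fold change 3.16, SE 0.18, adjusted p = 4.99e-10). STMN2, a neuronal tubulin regulator, was at 22.3 and 16.1 TPM in ES and 26 and 22.5 TPM on day 4 with no call (adjusted p = 0.419), and the neurogenins, NEUROD1 and ELAVL4 did not pass the filter.

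Axon guidance genes, whose proteins also set borders between progenitor domains, rose in 13 of 24 tested cases and fell in 5 (15 and 5 after scaling, and 3 falls without line 1). EPHA4, an ephrin receptor, was at 7.36 and 9.36 TPM in ES and 174 and 154 TPM on day 4 (log2 fold change 4.15, SE 0.25, adjusted p = 7.30e-10). EFNB1, an ephrin, was at 6.17 and 5.26 TPM in ES and 75.7 and 86.1 TPM on day 4 (log2 fold change 3.61, SE 0.15, adjusted p = 9.82e-12). UNC5D, a netrin receptor, fell from 29.1 and 30.7 to 8.65 and 9.6 TPM. In the matrix list COL2A1, a collagen of cartilage and notochord that neural epithelium also makes, rose from 15.9 and 13.5 to 199 and 248 TPM (log2 fold change 3.83, SE 0.19, adjusted p = 7.58e-11), and LAMA5, a laminin chain, fell from 203 and 149 to 51 and 66.4 TPM (log2 fold change -1.56, SE 0.25, adjusted p = 6.80e-05). Among imprinted and IGF genes, MEG3, the non-coding partner of DLK1, rose from 0.0498 and 0.0488 to 3.29 and 4.47 TPM (log2 fold change 2.21, SE 0.27, adjusted p = 3.77e-06), IGFBP5, an IGF-binding protein, from 3.65 and 1.48 to 58.8 and 68.8 TPM, and SNRPN fell from 881 and 805 to 201 and 221 TPM (log2 fold change -1.99, SE 0.07, adjusted p = 4.45e-13).

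Markers of cell types outside the neural line moved in both directions. Of 15 mesendoderm genes 4 passed the filter, 2 rose and 2 fell, and the summed TPM of the list was 10.1 and 7.09 in ES and 29.1 and 31.3 on day 4. CXCR4, a chemokine receptor that neural cells also use, made up most of the day 4 sum, at 23.9 and 26.5 TPM, and GSC, a homeobox factor, was at 2.9 and 2.83 TPM. The untested members, among them TBXT, EOMES, SOX17 and FOXA2, did not exceed 0.761 TPM in any of the 4 libraries. Surface ectoderm and amnion genes fell in 7 of 8 tested cases, namely 4 keratins, EPCAM, CDH1 and the epithelial factor GRHL2, with a summed TPM of 675 and 700 in ES and 125 and 128 on day 4. Neural crest and border genes split, 5 of 10 tested higher and 5 lower. The rises include PAX3, MSX1 and NGFR, a neurotrophin receptor, at 6.02 and 5.22 TPM in ES and 20.9 and 24.5 TPM on day 4 (log2 fold change 1.84, SE 0.28, adjusted p = 4.09e-05). FOXD3, of crest and pluripotent cells alike, was at 9.45 and 9.7 TPM in ES and is listed at 0 on day 4, and the crest genes SNAI2, TFAP2B and TWIST1 did not pass the filter. Of 7 tested mesenchyme and vessel genes, 4 fell and 0 rose.

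Glycolysis and hypoxia genes fell in 12 of 19 tested cases and rose in 0, with a median log2 fold change of -1.06. LDHA, lactate dehydrogenase, was at 892 and 659 TPM in ES and 44.8 and 43 TPM on day 4 (log2 fold change -4.10, SE 0.29, adjusted p = 5.37e-09). PGK1, a glycolytic kinase, was at 714 and 411 TPM in ES and 204 and 179 TPM on day 4 (log2 fold change -1.50, SE 0.17, adjusted p = 1.67e-06), and SLC2A3, a glucose transporter, at 253 and 227 TPM in ES and 32.6 and 29.7 TPM on day 4 (log2 fold change -2.91, SE 0.27, adjusted p = 1.70e-07). The groups did not overlap, though the ES lines differed for PGK1. Of 6 tested metallothioneins, 5 fell (4 after scaling and 3 without line 1), and for each of these line 1 lay above line 2 in ES. Stress genes fell in 8 of 17 tested cases and rose in 1: CHAC1 and ASNS, targets of the integrated stress response, had log2 fold changes of -3.10 and -2.23. Targets of p53 fell in 10 of 14 and rose in 0, led by PHLDA3 at 14.9 and 16 TPM in ES and 1.95 and 2.33 TPM on day 4.

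Cell cycle genes moved in both directions, with a median log2 fold change of -0.12. Their shares of calls were near those over all tested genes, 18.2% higher and 25.3% lower. Of 23 tested cell cycle genes 5 rose and 7 fell (3 and 1 without line 1, 3 and 3 without line 2), and CCNE2, a cyclin of S phase entry, had the largest rise, from 3.34 and 2.83 to 8.18 and 11.6 TPM. MKI67, a proliferation marker, was at 37.1 and 40.6 TPM in ES and 34.2 and 35.3 TPM on day 4 with no call (adjusted p = 0.285). Cytosolic ribosomal protein genes, taken by symbol, rose in 68 of 83 cases and fell in 6, with a median log2 fold change of 0.48, or 0.52 after scaling. Protein-coding genes of the mitochondrial genome fell in 10 of 13 cases, and all genes of that genome together held 9.87% and 11.5% of all TPM in ES and 7.26% and 6.9% on day 4. MT-ND5, a subunit of complex I, fell from 2672 and 2822 to 1148 and 1216 TPM (log2 fold change -1.22, SE 0.09, adjusted p = 8.41e-09). Of 10 chromatin and methylation genes 3 rose, EZH2 (the H3K27 methyltransferase), TET2 and UHRF1, and 3 fell, led by DNMT3B and JARID2, the latter from 89.6 and 88 to 23.9 and 24 TPM.

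To see which of these levels differed between labels, the same genes were compared between CT0.4 and IWP2 on day 4. This difference does not use the ES values. Since IWP2 itself blocks WNT release, a difference cannot be assigned to either label alone. Genes entered by their ES and CT0.4 day 4 levels, so genes high only under IWP2 or CT1.0, in KO or on day 8 are not in the counts that follow. Of all tested genes 763 were higher under CT0.4 (3.86%) and 3122 lower (15.8%). Scaling moved the median of all genes from -0.169 to 0.015 and turned the split to 1965 (9.94%) higher and 1472 (7.45%) lower, so the balance of directions depends on it. Fewer genes were called without line 1 (943) or line 2 (2119). Here and below, leading genes are those of the largest change by the rule used above, among genes that were also called against ES. The leading rises were DMBX1, SP5, POU4F1, IRX1, OTX1 and FOXB1. SP5 was at 0.0715 and 0.0379 TPM under IWP2 against 58.4 and 47.6 TPM under CT0.4 (log2 fold change 5.67, SE 0.55, adjusted p = 3.22e-06), and AXIN2 at 9.39 and 8.38 against 53.3 and 60.8 TPM (log2 fold change 2.55, SE 0.19, adjusted p = 2.88e-07). DMBX1 was at 0.0635 and 0.0332 TPM under IWP2 (log2 fold change 5.90, SE 0.29, adjusted p = 2.33e-09). PAX2, by contrast, was at 51.4 and 48.7 TPM under IWP2 and 30.7 and 38 TPM under CT0.4, with no call (adjusted p = 0.354). EN1 is listed at 0 in both IWP2 libraries and WNT1 was at 0.133 and 0.205 TPM there (adjusted p = 4.67e-05 and 3.30e-05). PAX2 apart, both IWP2 libraries lay below both CT0.4 libraries for each of these genes. Some large changes from ES were not told apart between the labels. The CT0.4 minus IWP2 difference was -0.48 for PAX6 (SE 0.34, adjusted p = 0.37). It was -0.20 for LIX1 (SE 0.17, adjusted p = 0.491), or 0.0444 after scaling. It was 0.21 for POU5F1 (SE 0.28, adjusted p = 0.667), or -0.21 without line 1. The leading falls were MAF, ETV5, ROBO2, ADM, DUSP6 and GPC3, of which ETV5 and DUSP6 report FGF signalling. DUSP6 was lower under CT0.4, at 3.1 and 5.56 TPM against 50.6 and 46.9 TPM (log2 fold change -3.26, SE 0.37, adjusted p = 1.49e-05).

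Against CT1.0 on day 4, 1419 genes were higher under CT0.4 (7.18%) and 556 lower (2.81%), or 946 (4.79%) and 777 (3.93%) after scaling. Leaving out line 1 left 568 calls and leaving out line 2 415. Under the same limits the leading rises were SHISA2, CNTN2, OTX2, OTX1, LHX5-AS1 and DMBX1. OTX2 was at 11.8 and 4.55 TPM under CT1.0 against 427 and 415 TPM under CT0.4 (log2 fold change 5.64, SE 0.36, adjusted p = 1.02e-07), and OTX1 at 1.56 and 0.591 against 77.8 and 97.6 TPM (log2 fold change 5.45, SE 0.39, adjusted p = 3.16e-07). The leading falls were CYP26A1, HTR2C, RASL11B, SOX1, FGFBP3 and SLC15A3. CYP26A1 was at 259 and 314 TPM under CT1.0 against 1.44 and 2.45 TPM (log2 fold change -6.63, SE 0.54, adjusted p = 9.59e-07), and SOX1 at 84.1 and 98 against 4.88 and 7.01 TPM (log2 fold change -3.74, SE 0.36, adjusted p = 4.29e-06). OTX2 and SOX1 thus lay on opposite sides between these labels. The SLC15A3 difference was not called without line 1 or without line 2 (adjusted p = 0.0551 and 0.0568).

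Some genes were highest or lowest under CT0.4 among these groups. In these comparisons, which share the CT0.4 libraries and a filter that lets in genes high under CT0.4 but not those high only under IWP2 or CT1.0, 193 genes were called higher under CT0.4 on day 4 than in ES, under IWP2 and under CT1.0 (0.976%), and 118 lower than in all 3 (0.597%). After scaling the counts were 258 and 110, and 63 and 21 without line 1 or 57 and 27 without line 2. Of the 169 genes called highest on both scales, 38 exceeded both other labels by at least 2 on the log2 scale. They include DMBX1, OTX1, POU4F1 and PAX3 of the midbrain list, and the WNT genes SP5, DKK1, RSPO2 and TNFRSF19. Genes of other regions are among them too: the dorsal forebrain factor EMX2 with its antisense gene EMX2OS, DBX1 and the ventral factor NKX6-1. SP5 was at 1.39 and 0.61 TPM under CT1.0, DKK1 was at 0.352 and 0 TPM under IWP2 and is listed at 0 in both CT1.0 libraries, and RSPO2 was at 0.873 and 1.59 TPM under IWP2 and 1.13 and 0.391 TPM under CT1.0. DMBX1 was at 1.5 and 0.945 TPM under CT1.0. EN1 and WNT1 were not told apart between CT0.4 and CT1.0, with differences of 1.18 (SE 0.38, adjusted p = 0.0554) and 0.69 (SE 0.37, adjusted p = 0.285).

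**Figure D4:**
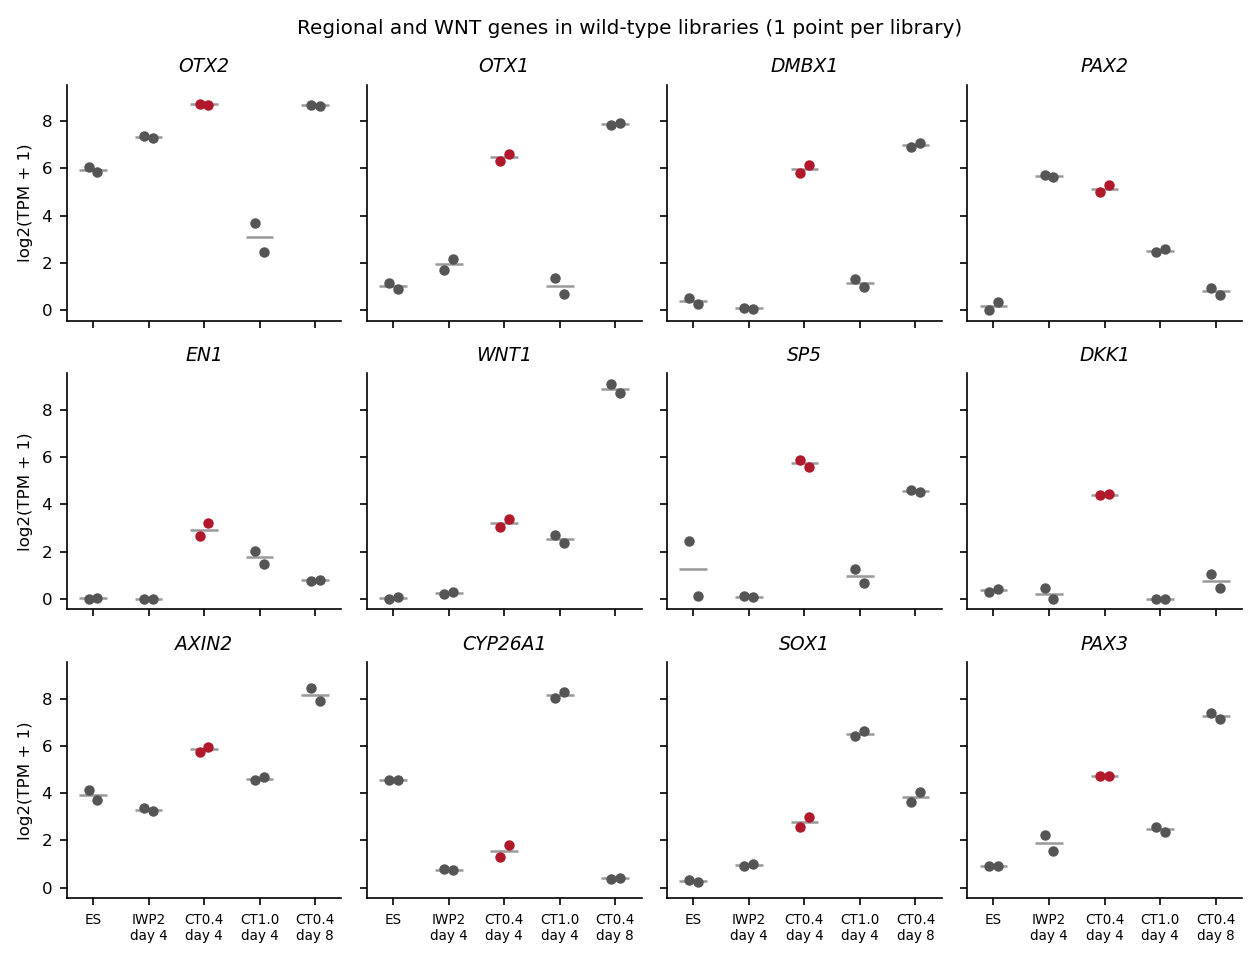
TPM of 12 regional and WNT genes in each wild-type library of ES, IWP2 day 4, CT0.4 day 4, CT1.0 day 4 and CT0.4 day 8, on a log2(TPM + 1) axis, with 1 point per library and short bars at group means. DMBX1, OTX1, SP5 and DKK1 stand highest among the day 4 labels under CT0.4, OTX2 is lowest under CT1.0, and SOX1 is highest there among the day 4 labels.

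The same step from ES to CT0.4 day 4 was measured in KO cells, in 4 libraries of their own. SOX1 itself was at 0.0238 and 0.051 TPM in KO ES and 0.866 and 1.49 TPM in KO on day 4. The labels do not name the part of the gene that was deleted. Of the 3598 genes that rose in wild type, 2786 rose in KO (77.4%, and 53.5% of the 5205 KO rises) and 24 fell. KO rises made up 26.3% of tested genes and KO falls 23.6%. Of the 4998 wild-type falls, 3459 fell in KO (69.2%, and 74.3% of KO falls) and 90 rose. Scaling changed the KO split to 4334 rises (21.9%) and 5520 falls (27.9%) and the median of all genes from 0.075 to -0.029. The log2 fold changes of the markers in KO were 5.0 for PAX3, 2.76 for OTX2, 5.12 for LIX1, 5.53 for ZEB2, 7.06 for GREB1L and -5.88 for POU5F1, each called. Midbrain genes rose in KO in 15 of 16 cases, and core pluripotency genes fell in 17 of 22.

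The step itself differed between genotypes for 1151 genes (5.82%): 292 genes had a higher step in wild type (1.48%) and 859 a lower one (4.35%). Scaling turned this split to 1039 (5.26%) and 585 (2.96%) and moved the median of all genes from -0.153 to -0.001. The count fell to 88 without wild-type line 1 and to 189 without KO line 26. Of the glycolysis and hypoxia genes 15 of 19 had a lower step in wild type. Of these, 9 rose in KO and 4 fell. BNIP3, a mitophagy receptor induced by hypoxia, was at 143 and 75.3 TPM in wild-type ES and 30.9 and 26.5 TPM on day 4, and at 27.4 and 29.7 TPM in KO ES and 154 and 154 TPM in KO on day 4 (difference of steps -4.21, SE 0.34, adjusted p = 1.03e-05). VEGFA, the angiogenic factor, was at 38.6 and 29.1 TPM in wild-type ES and 17.4 and 14 TPM on day 4, and at 22.5 and 29.8 TPM in KO ES and 64.3 and 77.6 TPM in KO on day 4 (-2.47, adjusted p = 2.55e-04). SLC16A3, a lactate exporter, was at 43.4 and 23.1 TPM in wild-type ES and 3.57 and 1.45 TPM on day 4, and at 4.33 and 8.24 TPM in KO ES and 33.6 and 39.9 TPM in KO on day 4 (-5.71, adjusted p = 2.17e-04). In all 3 genes both KO day 4 libraries lay above both wild-type ones, and for BNIP3 and SLC16A3 both KO ES libraries lay below both wild-type ones. Among genes called against ES, the others leading this difference downward were DDIT4, BHLHE40, BVES-AS1 and PPFIA4, and those leading it upward were ARF4-AS1, NPIPA7, TOE1, NCOA5, ACTL8 and RPP40. Without wild-type line 1 none of these 6 upward differences was called (adjusted p from 0.166 to 0.33), nor was that of BVES-AS1 (adjusted p = 0.0763). Without KO line 26 the 6 were not called either (adjusted p from 0.14 to 0.272). The antisense genes and NPIPA7, a member of a family of near-identical copies, are uncertain. Of the 16 tested midbrain genes, 0 had a higher and 0 a lower step in wild type.

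**Figure D5:**
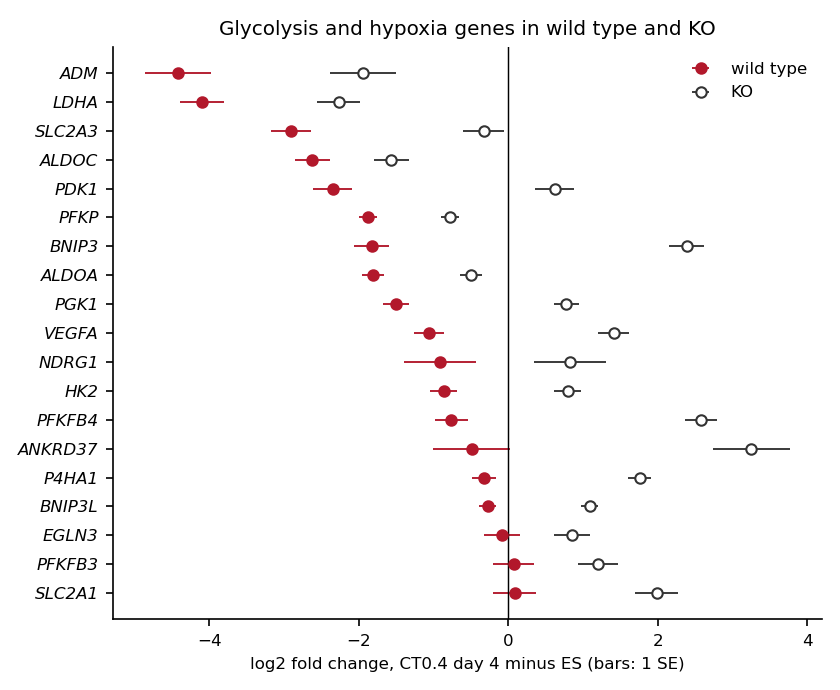
Mean log2 fold change from ES to CT0.4 day 4 of the 19 glycolysis and hypoxia genes in wild type (filled) and KO (open), with bars of 1 SE from limma and n = 2 libraries per group. Wild-type points lie left of the KO points for every gene drawn, and most KO points lie above 0 while most wild-type points lie below it.

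By day 8 under CT0.4 some day 4 levels had passed and others had grown. Of all tested genes 5004 were higher on day 8 (25.3%) and 1510 lower (7.64%), and scaling moved the median from 0.208 to -0.029 and the split to 2722 (13.8%) and 3308 (16.7%). Without line 1 the calls numbered 3299 and without line 2 4206. POU5F1, at 46.5 and 34.1 TPM on day 4, was at 1.47 and 0.82 TPM on day 8 (log2 fold change -4.27, SE 0.28, adjusted p = 8.75e-09). PAX2 went from 30.7 and 38 to 0.919 and 0.567 TPM (log2 fold change -4.34, SE 0.37, adjusted p = 1.39e-07), DBX1 from 61.4 and 61.7 to 1.06 and 4.4 TPM (log2 fold change -4.23, SE 0.44, adjusted p = 1.54e-06) and DKK1 from 19.9 and 20.7 to 1.04 and 0.367 TPM. For each of these 4 genes both day 8 libraries lay below both day 4 libraries. HES3, FEZF1 and FBLN1 were the other leading falls among genes called against ES. WNT1 rose on to 547 and 420.1 TPM (log2 fold change 5.68, SE 0.37, adjusted p = 8.34e-09), LMX1A to 278 and 169.7 TPM (log2 fold change 5.29, SE 0.38, adjusted p = 2.22e-08) and PAX3 to 166 and 139 TPM (log2 fold change 2.52, SE 0.28, adjusted p = 2.83e-06). ID1, which had fallen by day 4, was at 177 and 140.4 TPM on day 8 (log2 fold change 5.90, SE 0.28, adjusted p = 3.01e-10), and ANXA2, an annexin, at 304 and 212 TPM against 2.16 and 3.22 TPM on day 4 and 133 and 112 TPM in ES. TAC1 and ITPKB were the other leading rises under that limit. OTX2 was at 413 and 403 TPM on day 8, with a difference of -0.04 (SE 0.36, adjusted p = 0.952).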

How the data were processed

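Poly(A) RNA was sequenced in 28 libraries of 14 groups with 2 libraries each. The authors deposited 1 table of TPM, with the same total in each library. CASAVA 1.7, Salmon 0.8.2 and hg38 are named, per the submitters' processing notes, without their roles. The labels name 2 read formats but tie neither to a library, which leaves batch out of every fit. 0 per-sample columns lacked a sample.

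limma 3.58.1 (R 4.3.3) was fitted to log2(TPM + 1) with 1 mean per group over all libraries (14 residual degrees of freedom) and an intensity trend. The code was run on simulated data with independent normal noise and far fewer changed genes than were called here. That setting differs from these data, so the run is no support for the calls. Every comparison used the 19765 genes that passed the filter, with Benjamini-Hochberg adjustment over all of them. All groups enter the fit so that they share 1 estimate of the spread.

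The members and gene lists were chosen with earlier results of these data known. Genes were named by a fixed rule: the markers and SOX genes, the 15 leading genes in each direction called on both scales, changed by 1 or more on the log2 scale, with groups that do not overlap (leaving out clone-like, LINC, LOC and similar identifiers, pseudogenes, ribosomal protein and mitochondrial genes, and names in more than 1 row), up to 5 called members per list and direction, up to 3 uncalled ones, and 6 genes per direction in the other comparisons, among genes called against ES. Sequences are from RefSeq (GRCh38.p14). Promoters were matched by symbol. Leaving out single libraries, keeping protein-coding genes, leaving out KO lines, and correcting for GC content and length were alternatives chosen after seeing the data. Results for a few genes of these lists are not reported here.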

Additional observations from a re-analysis of the deposited data

Results flagged for a closer look

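The step from ES to CT0.4 day 4 differed between wild-type and KO cells for 1151 genes by the interaction term in limma, and scaling changed which direction prevailed. Among the genes named in the report, the wild-type minus KO difference of the steps, in log2 units, was negative for DDIT4 (-5.73), SLC16A3 (-5.71), BNIP3 (-4.21), BHLHE40 (-4.12), BVES-AS1 (-3.54), PPFIA4 (-3.34), ID1 (-2.69), SLC2A3 (-2.58), ADM (-2.47), VEGFA (-2.47), PGK1 (-2.28), LAMA5 (-1.94), IGFBP5 (-1.90), LDHA (-1.83), IRX3 (-1.54), ANXA2 (-1.45), GREB1L (-1.06), VIM (-0.66). It was positive for ARF4-AS1 (2.19), NPIPA7 (2.01), TOE1 (1.67), NCOA5 (1.64), ACTL8 (1.40), RPP40 (1.28). Groups of 2 libraries are too small to test for a library that stands apart.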

How the results depend on the processing

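Against ES, 173 called gene values were tracked. All kept their call after median-ratio scaling, with the same-numbered lines as a replicate block (8695 genes called), and under robust variances. The leading genes against ES were named only if called on both scales, so for them scaling is no check. Without line 1, 13 calls were lost, and without line 2, 10, none with a change of direction. These are ACTL8, ARF4-AS1, BHLHE40, BVES-AS1, DDIT4, EGR2, ETV5, GPC3, HTR2C, NPIPA7, PPFIA4, RPP40, TOE1 without line 1 and ARF4-AS1, BHLHE40, BVES-AS1, ETV5, FBLN1, FEZF1, FGF17, HES3, IRX3, NPIPA7 without line 2. The count of called genes against ES ranged from 5743 to 5983 with a line left out and was 4186 with the fold change limit, which removes small changes by construction. Leaving out a line, which also leaves fewer samples, gave 943 to 2119 calls against IWP2, 415 to 568 against CT1.0 and 3299 to 4206 for day 8. It gave 88 (without wild-type line 1) to 1288 (without wild-type line 2) for the difference of the steps, and 189 without KO line 26. Genes highest under CT0.4 numbered 57 to 63 and lowest 21 to 27. Each other alternative moved these counts by less than 1.5 times. With a line left out, a lone library is assumed to vary like the other groups. LIX1 against IWP2 turned to 0.0444 after scaling, and POU5F1 against IWP2 ranged from -0.21 without line 1 to 0.63 without line 2, both uncalled. The numbers were not treated as pairs: differences between lines correlated across wild-type groups at -0.086 to 0.083 over 9807 genes. The replicate block gave 4068 calls against IWP2 and 2065 against CT1.0, where EN1 was then called (adjusted p = 0.0238). TPM keeps no depth, so counting error could not be set beside any value. Causes of these changes were not tested.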

Other observations

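Some genes went from near 0 to a clear level or the reverse. By a rule chosen after seeing the data, 12 tested genes were under 0.1 TPM in both ES libraries and at 10 TPM or more in both CT0.4 day 4 libraries. The 6 protein-coding ones were the nuclear receptors NR2F1 and NR2F2, the transcription factors POU4F1 and EMX2, the growth factor FGF9 and MAB21L2, a gene of midbrain and eye development. MAB21L2 was at 0.0739 and 0.0487 TPM in ES and 11 and 11 TPM on day 4 (log2 fold change 3.50, SE 0.37, adjusted p = 7.07e-07). In reverse, 30 genes were at 10 TPM or more in both ES libraries and under 0.1 TPM in both day 4 libraries, 10 of them protein-coding. They include TDGF1, the lymphoid kinase LCK, the chemokine CCL26, the cytokine TNFSF11, the small heat shock protein HSPB8 and LAD1, a basement membrane protein. LCK was at 39.8 and 50.3 TPM in ES and is listed at 0 in both day 4 libraries.

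Canonical histone genes, whose RNAs mostly lack a poly(A) tail, were higher in 7 of 12 tested cases (4 without line 1) and lower in 0. The libraries were made from poly(A) RNA per the labels, histone genes have near-identical copies, and how well tailless RNA was captured in each library was not tested.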
